A study of Mus musculus with 6 samples.

Results

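Proliferation genes were examined in exudate cells of the mouse peritoneum (PEC), labelled as macrophages too. The list holds 33 genes of S phase and mitosis, and its members are the probe sets whose platform annotation carries 1 of these symbols alone. Of the 33 genes, 31 had such a probe set (44 probe sets in all), among 8251 named genes on the array. Ccnb1, which encodes cyclin B1, had none, and the 2 probe sets for Tyms, thymidylate synthase, are annotated to a second gene as well, so neither gene has a value here. Where a gene had several probe sets, the one with the highest mean log2 signal stands for it. Prim1, a DNA primase subunit, and Mcm6, a helicase subunit, were under the floor described below on all 6 arrays. The other 29 passed it on at least 1 array.

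Cells came from mice without NF-IL6 (KO), from a knock-in line labelled KI(LAP) (KI) and from wild-type mice (WT), all labelled C57BL/6. NF-IL6 is another name of C/EBPβ, the transcription factor made from Cebpb, whose activating form is called LAP. Each genotype was measured after lipopolysaccharide (LPS) with interferon-γ, for 12 h in KO and KI cells and with no time given for WT cells, and untreated. There was 1 Affymetrix array in each of these 6 groups, so no group had a replicate. Whether RNA of 1 mouse or of several was put on an array, how the KI allele was made and how the exudate was raised are not in the labels. The deposited signals are linear intensities, and the number of arrays limits the precision of every value below. Cebpb had a signal of 59.0 in stimulated and 12.7 in untreated KO cells, 5890 and 2284 in KI cells, and 9328.5 and 5491.5 in WT cells. The deposited median signal ran from 131 on the stimulated KI array to 185 on the untreated WT array, and 55.7% and 65.8% of their probe sets passed the floor.

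A dividing cell first licenses its replication origins by loading the MCM helicase with the help of Cdc6, then copies its DNA under cyclin E and cyclin A, and then enters mitosis under cyclin B and Cdk1. Most S phase genes are switched on by E2F factors, whereas many mitotic genes are held down outside their time by a repressor complex at promoter elements called CHR and are activated by NF-Y at CCAAT boxes. Mature macrophages divide little, although those of the mouse peritoneum can divide in place under colony-stimulating factor 1, and LPS and interferon-γ are known to stop the growth of cultured mouse macrophages. Transcripts of these genes are therefore taken as marks of cells in cycle, of whichever type. Whether each member marks such cells here was not tested. In RNA of a mixed preparation, fewer dividing cells and less of the transcript in each dividing cell cannot be told apart.

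Of the 31 measured members, 19 had their highest signal on the untreated KO array (61.3%), 6 on the untreated KI array (19.4%), 3 on the untreated WT array, 2 on the stimulated WT array, 1 on the stimulated KO array and 0 on the stimulated KI array. The 2 on the stimulated WT array were Mcm6 and Prim1, which were under the floor on every array. Of all 8251 named genes, 16.4% were highest on the untreated KO array, 15.2% on the untreated KI array and 36.0% on the untreated WT array. The members were chosen with earlier results of these data known, so their shares are not independent of these data. Kif11 and Top2a passed the floor on the untreated KO array alone, and Bub1 on the untreated WT array alone. The array with the highest signal differed by role, counted whatever the margin and without a test. Of 7 licensing and helicase genes above the floor, 5 were highest in untreated KI cells (Mcm2, Mcm3, Mcm4, Mcm5 and Cdc45). Of the 5 measured cyclin and kinase genes 4 were highest in untreated KO cells, as were 9 of the 11 spindle and chromosome genes. Mcm4 was nearly tied, with 548 in untreated KI, 524 in untreated WT and 511 in untreated KO cells. A second Mcm5 probe set was highest on the stimulated WT array (278). The median member signal was 98.6 in stimulated and 510.2 in untreated KO cells, 150.3 and 255 in KI cells, and 170.3 and 219 in WT cells.

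**Figure D1:**
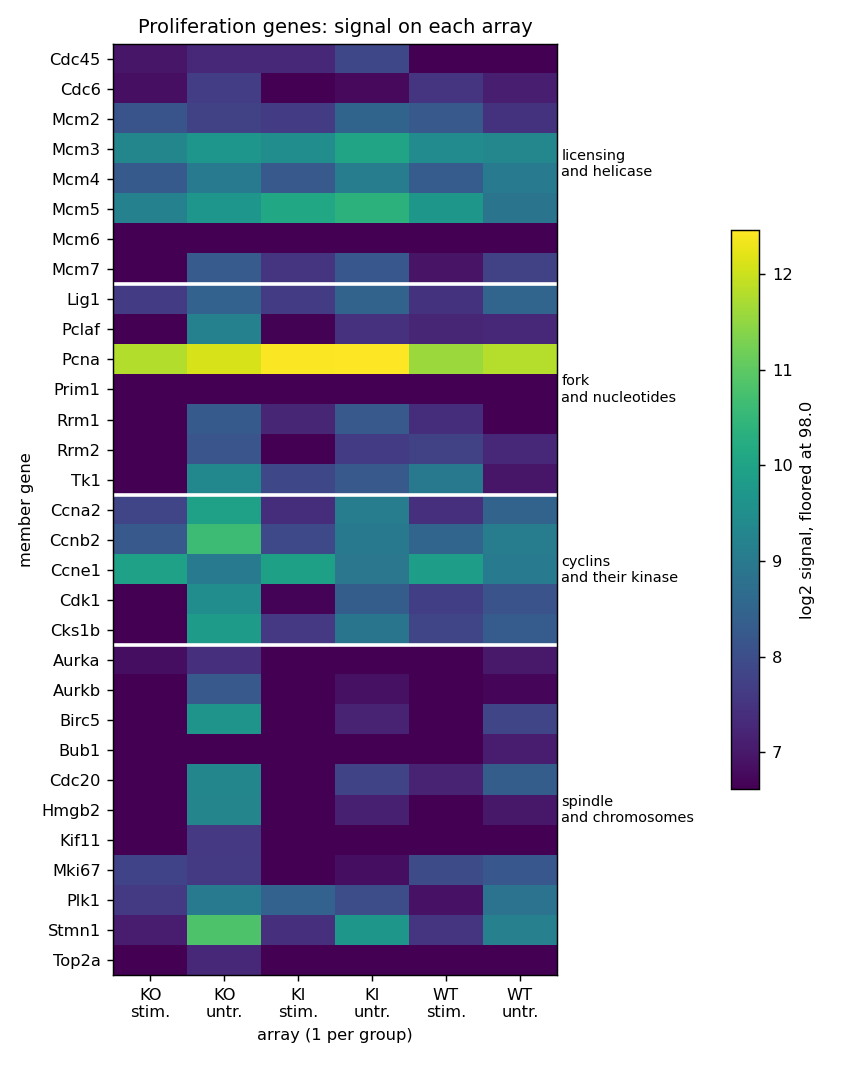
Log2 signal of the 31 measured proliferation genes (rows, grouped by role) on the 6 arrays (columns, 1 per group), with signals under 98.0 drawn at that floor. Most cyclin, kinase, spindle and chromosome genes are brightest in the untreated KO column, and Mcm2, Mcm3, Mcm5, Cdc45 and Pcna in the untreated KI column.

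In untreated cells, 4 of 5 cyclin and kinase genes, 4 of 11 spindle and chromosome genes and 3 of 7 fork and nucleotide genes were at least 2-fold higher in KO than in WT, and 0 of 8 licensing and helicase genes were. Values were compared as log2 signals with a floor at a signal of 98.0, the 40th percentile of all values, and a difference of at least 1 (2-fold) was counted. By that size 11 of the 31 members were higher in KO cells (5.53% of all named genes were) and 0 were lower (3.43% were). The members were chosen with earlier results of these data known, so this excess is not independent of them. The median difference was 0.68 over the members and 0 over all named genes. These are differences between single arrays, without a test. Signals under the floor are printed as deposited, and a fold that uses one is a lower bound, written with "at least".

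Among the cyclins and their kinase, Ccnb2, the cyclin B2 that drives entry into mitosis, had a signal of 1580 in untreated KO and 504 in untreated KI cells, against 536 in untreated WT cells (KO 2.95-fold WT). Cdk1, the kinase that cyclins A and B switch on, stood at 712 and 325, against 274.5. KO cells thus stood alone for both genes, with KI close to WT. Ccna2, the cyclin of S and G2 phase, had 998 in KO and 534 in KI cells, against 355 in WT cells. Cks1b, a small subunit that binds these kinases, had 908 and 475, against 318. For these 2 genes the KI signal lay between KO and WT, 1.5-fold and 1.49-fold the WT signal. Ccne1, the cyclin E1 of S phase entry, was close in the 3 genotypes at 513 in KO, 485 in KI and 529 in WT cells.

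The promoters of 3 of these genes are shown because their genes were high together in untreated KO cells. That of Mcm5 is shown because the gene, by the probe set used, was highest in untreated KI cells. They are the 250 bases before the transcription start, read 5′ to 3′ on the gene's strand, from RefSeq on GRCm38.p6. Capitals mark CCAAT, the CHR-type motif TTTGAA and the E2F-type motifs TTTCCCGC, TTTGGCGC, TTTCGCGC and TTTGCCGC, each searched on both strands, so that CCAAT on the other strand reads ATTGG and TTTGAA reads TTCAAA. The lines give Ccnb2 at chr9:70421555-70421804, Cdk1 at chr10:69352913-69353162 and Cks1b at chr3:89418292-89418541, all on the minus strand, and Mcm5 at chr8:75109259-75109508 on the plus strand.
Ccnb2: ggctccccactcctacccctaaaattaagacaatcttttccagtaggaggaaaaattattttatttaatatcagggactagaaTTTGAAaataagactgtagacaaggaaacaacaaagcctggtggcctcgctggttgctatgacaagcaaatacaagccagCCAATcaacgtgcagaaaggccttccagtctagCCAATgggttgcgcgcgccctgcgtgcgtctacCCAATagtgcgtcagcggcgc
Cdk1: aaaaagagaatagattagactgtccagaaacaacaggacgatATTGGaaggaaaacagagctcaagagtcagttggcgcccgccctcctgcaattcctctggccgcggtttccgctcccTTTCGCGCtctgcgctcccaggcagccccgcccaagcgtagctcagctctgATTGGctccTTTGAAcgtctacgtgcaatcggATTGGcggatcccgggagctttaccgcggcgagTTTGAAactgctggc
Cks1b: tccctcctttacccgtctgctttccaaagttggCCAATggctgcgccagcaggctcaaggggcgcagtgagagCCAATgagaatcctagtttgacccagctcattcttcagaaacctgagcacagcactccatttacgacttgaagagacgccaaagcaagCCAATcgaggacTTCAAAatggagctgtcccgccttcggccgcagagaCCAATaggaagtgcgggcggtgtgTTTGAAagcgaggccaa
Mcm5: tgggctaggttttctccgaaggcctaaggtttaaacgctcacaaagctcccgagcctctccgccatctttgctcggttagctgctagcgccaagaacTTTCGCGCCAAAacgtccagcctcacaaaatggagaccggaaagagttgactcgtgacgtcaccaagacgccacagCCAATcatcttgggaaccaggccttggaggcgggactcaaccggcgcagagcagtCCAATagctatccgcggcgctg
Ccnb2 holds 3 CCAAT motifs and 1 TTTGAA. Cdk1 holds 3 CCAAT, 2 TTTGAA and 1 E2F-type motif, and Cks1b 4 CCAAT and 2 TTTGAA. The capitals of Mcm5 begin with 2 E2F-type motifs on opposite strands that overlap each other, and 2 CCAAT follow. Of the 33 genes, 29 matched an entry of the promoter table, with 32 promoters between them. CCAAT was found in 75.0% of these 32 and in 33.8% of all 32851 promoters of the table, TTTGAA in 31.2% and 16.0%, and an E2F-type motif in 15.6% and 1.86%. The other members at least 2-fold higher in untreated KO than in WT cells were mixed. Hmgb2 held CCAAT and TTTGAA, Pclaf and Rrm1 held CCAAT alone, and Tk1 and Birc5 held none of these motifs. Aurkb, Ccna2 and Stmn1 had no entry in the promoter table. The members at least 2-fold higher in untreated KI than in WT cells were mixed as well. Besides Mcm5, Rrm1 and Tk1 they were Cdc45 and Mcm2, which each held TTTGAA and CCAAT and no E2F-type motif. A match is a run of letters in this window and describes no binding.

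Spindle and chromosome genes followed the mitotic cyclins. Hmgb2, a chromatin protein of dividing cells, had a signal of 620 in untreated KO and 139.7 in untreated KI cells, against 128 in WT cells (KO 4.85-fold WT). Birc5, the survivin subunit of the chromosomal passenger complex, had 795 in KO and 148 in KI cells, against 229 in WT cells. Its partner kinase Aurkb had 302 and 118, against 104.5. Only the KO array was high for these genes, and the KI signal of Birc5 was below the WT one. Stmn1, the microtubule-destabilising stathmin, had 1822 in KO and 833 in KI cells, against 568 in WT cells (KO 3.21-fold WT). Cdc20, which activates the anaphase-promoting complex, had 628 and 225, against 324, just under the 2-fold mark in KO.

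Kif11, the kinesin that separates spindle poles, had 193 in KO cells and signals under the floor in KI (80.2) and WT (60.2) cells, at least 1.97-fold higher in KO than in WT. Top2a, the topoisomerase that untangles chromosomes, passed the floor on the untreated KO array alone, at 153. Both bounds were under 2-fold. Aurka, a kinase of the spindle poles, differed less, with 172 in KO and 90.5 in KI cells, against 129 in WT cells. Bub1, a spindle checkpoint kinase, passed the floor on the untreated WT array alone (133).

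Probe sets of 1 gene did not always agree. Mki67, the marker Ki-67, is represented by a probe set with 196 in untreated KO and 115 in untreated KI cells, against 292 in WT cells. Its other probe set had 452 in KO, 94.7 in KI and 57.6 in WT cells, at least 4.62-fold higher in KO than in WT, so the direction turned between both. A second Mcm5 probe set, above the floor on all 6 arrays, had 145 in untreated KO and 162 in untreated KI cells, against 162 in WT cells, and showed none of the Mcm5 difference given below. For Plk1, a mitotic kinase, the 3 probe sets were 1.11-fold, 1.30-fold and 3.03-fold higher in KO than in WT. The other probe sets of Stmn1, Rrm1 and Pclaf were under the floor on all 6 arrays and give no second reading. Hmgb2 had no other probe set. With probe sets whose names carry no suffix letter wherever a gene had one, a setting chosen after seeing the data that changed 2 of the 31 members, Mcm3 and Mki67, 12 members were at least 2-fold higher in untreated KO cells.

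Genes of DNA synthesis were divided. Tk1, the thymidine kinase of S phase, had a signal of 652 in untreated KO and 302 in untreated KI cells, against 125 in WT cells (KO 5.20-fold and KI 2.41-fold WT). Rrm1, the large subunit of ribonucleotide reductase, had 308.5 in KO and 302 in KI cells, against 33.8 in WT cells, at least 3.15-fold and 3.08-fold higher. Both mutant genotypes were above WT for these 2 genes. Its partner Rrm2 had 284 and 198, against 156. Pclaf, a small protein that binds PCNA, resembled the mitotic genes, with 584 in KO and 176 in KI cells, against 155 in WT cells. Lig1, the ligase that joins Okazaki fragments, was close in the 3 genotypes at 349, 353.5 and 366. Tk1 and Birc5, at 5.20-fold and 3.48-fold, lie 23.2 kb apart on chromosome 11, by their starts in the promoter table.

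Several MCM genes and Cdc45 had a higher signal in untreated KI cells than in untreated KO or WT cells. Mcm5, a helicase subunit, had a signal of 824 in untreated KO and 1330 in untreated KI cells, against 463 in WT cells (KO 1.78-fold and KI 2.87-fold WT). Cdc45, which completes the active helicase, had 157 in KO and 235 in KI cells, with a WT signal of 66.0 that is under the floor (KI at least 2.40-fold higher). Mcm2 had 216 and 360, against 178 (KI 2.03-fold WT). All 3 had KI highest, then KO, then WT, for Mcm5 only by the probe set used. Mcm3, at 818 in KO and 1036.5 in KI cells against 644 in WT cells, and Pcna, the sliding clamp, at 4373 and 5622 against 3582, kept that order with differences under 2-fold. Mcm4, at 511, 548 and 524, and Mcm7, at 315.5, 296.5 and 219, did not, and Cdc6 had 203 in KO and 109 in KI cells, against 137 in WT cells.

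In all, 5 of 31 members were at least 2-fold higher in untreated KI than in untreated WT cells (Cdc45, Mcm2, Mcm5, Rrm1 and Tk1; 7.2% of all named genes were), and 1 was lower (Mki67; 8.33% were). The median difference was 0.13. By role, the median KO difference from WT was 0.44 for the 8 licensing and helicase genes, 0.86 for 7 fork and nucleotide genes, 1.49 for 5 cyclin and kinase genes and 0.96 for 11 spindle and chromosome genes. The median KI differences in the same order were 0.56, 0.34, 0.24 and -0.40. Both comparisons share the untreated WT array, so a low WT value enters both. With a floor at the 60th percentile 1 member was called in KI, and with the second probe set 3. Only 10 of the 31 members had a second probe set, and several of these probe sets never passed the floor.

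**Figure D2:**
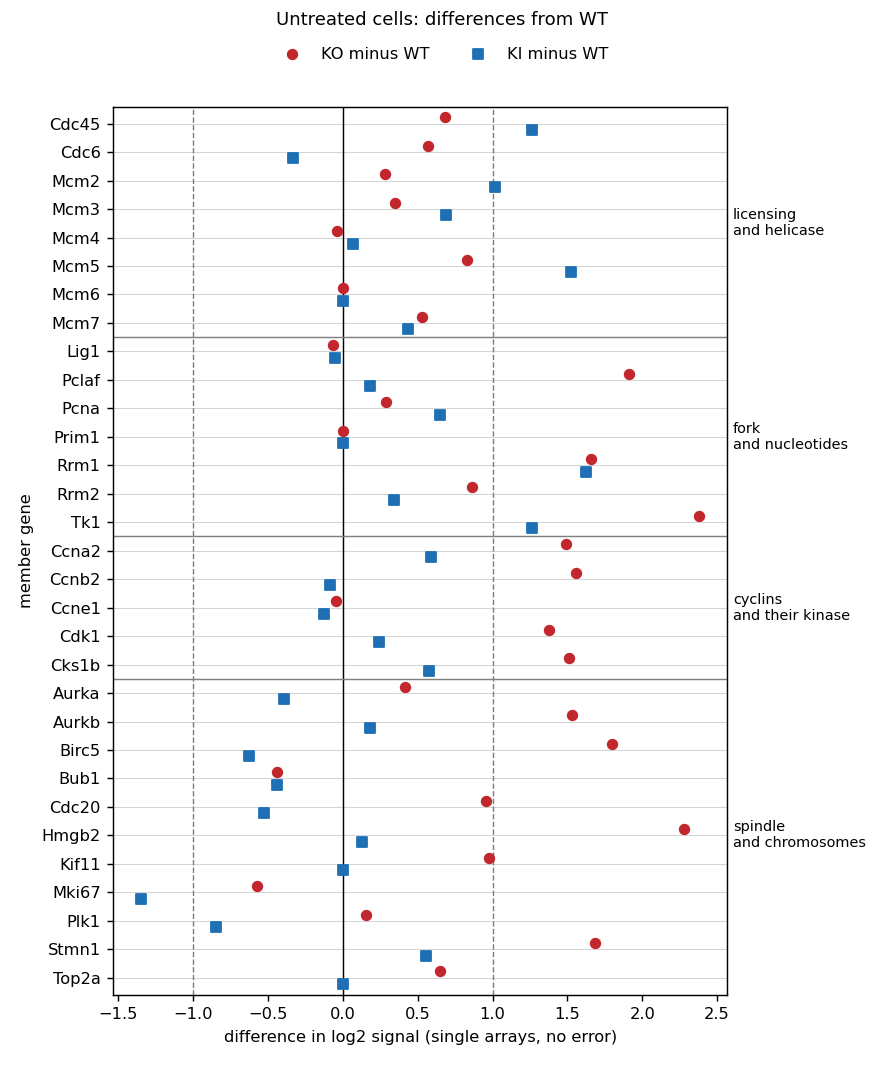
Difference in log2 signal from WT in untreated cells for the 31 members, KO as circles and KI as squares, with dashed lines at 1 and -1. There is 1 array per group and no error bar. KO circles pass the right line for 11 members, and KI squares for Cdc45, Mcm2, Mcm5, Rrm1 and Tk1.

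In stimulated cells the members' order was different. No member was at least 2-fold higher in stimulated KO than in stimulated WT cells (2.25% of all named genes were), and 4 were lower (2.73% were): Tk1, Cdk1, Cks1b and Rrm2. Tk1 had a signal of 93.0 in stimulated KO and 237 in stimulated KI cells, against 501 in stimulated WT cells, at least 5.11-fold lower in KO than in WT. Rrm2 had 98.6 and 69.1, against 214. WT cells had the highest signal of both genes. Cdk1 had 48.0 and 102, against 208.5, and Cks1b 98.0 and 191, against 229. In KI cells 4 members were lower than in WT (Cdk1, Mki67, Rrm2 and Tk1, with 3.94% of all named genes) and Plk1 was higher (1.58%). That Plk1 value rests on 1 probe set, with 349.5 in stimulated KI against 119.9 in stimulated WT cells, while its others had 186 against 155 and 42.3 against 22.1. The counts for stimulated cells depend on the floor: with one at the 20th percentile 8 members were lower and 1 higher in KO, and 8 lower and 2 higher in KI, and with one at the 60th percentile 0 were called in either. Median centring gave 2 lower and 2 higher members in KI.

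Stimulation lowered cyclin A and stathmin in the fit over all genotypes, and raised cyclin E1. That fit, limma over the 6 arrays with genotype as a block, has 2 residual degrees of freedom. Its p-values set the mean change against how far the response varied between genotypes, not between cultures. Of the 29 members tested, 2 fell (6.9%, beside 6.55% of the 6767 genes tested) and 1 rose (3.45%, beside 5.31%). These shares of the members are near or below those of all genes tested. The median change was -0.66 over these members and -0.13 over all genes tested. Ccne1 rose to 991 in KO, 976 in KI and 950 in WT cells, against untreated signals of 513, 485 and 529 (log2 change 0.93, SE 0.16, limma adjusted p = 0.0272). The 3 stimulated signals were close together and all above the untreated ones.

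Stmn1 fell to 136 in KO, 173 in KI and 184 in WT cells, against untreated signals of 1822, 833 and 568 (log2 change -2.55, SE 0.44, limma adjusted p = 0.0304). Ccna2 fell to 229 in KO, 167 in KI and 170.3 in WT cells, against 998, 534 and 355 (log2 change -1.62, SE 0.29, limma adjusted p = 0.0326). For both genes the untreated signals differed more between genotypes than the stimulated ones. Cdc20 (-1.67, limma adjusted p = 0.0583), Lig1 (-0.90, 0.0779) and Mcm7 (-1.09, 0.0774) were lower on the stimulated array in all 3 genotypes and did not pass. At an unadjusted p under 0.05 in the same limma fit, 10 of the 29 members were lower (34.5%) and 1 higher (3.45%), beside 18.5% and 10.4% of all genes tested. The 3 calls ended (0 calls) without both arrays of any 1 genotype and without the filter on probe sets, while log2(signal + 50) in place of the floor gave 10 lower and 1 higher.

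By size, more members were lower after stimulation in KO cells than in the other genotypes, on single arrays and without a test. After stimulation, 15 of 31 members were at least 2-fold lower in KO cells (8.52% of all named genes were) and 0 higher (5.53%). This count reuses the untreated KO array, on which 11 members were at least 2-fold higher than in WT, and is not independent of that excess. The members were also chosen with earlier results of these data known. In KI cells 8 were lower (7.05%) and 1 higher (4.82%), and in WT cells 6 were lower (8.69%) and 1 higher (7.24%). Centring each array on its median turned the WT counts to 2 lower and 3 higher, and quantile normalization made them 4 and 2. The median change was -0.98 in KO, -0.53 in KI and -0.21 in WT cells.

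In KO cells the lower members included spindle, cyclin and nucleotide genes. Stmn1 was 13.4-fold lower after stimulation, and Cks1b 9.27-fold. Birc5 had a signal of 60.3 in stimulated KO cells, against 795 in untreated ones, at least 8.12-fold lower, where KI cells had 57.2 against 148 and WT cells 99.4 against 229. Cdk1 was at least 7.27-fold lower in KO, and Hmgb2, at 40.1 against 620, at least 6.33-fold. The stimulated signals of Birc5 and Hmgb2 were low in all genotypes, while those of Cks1b and Cdk1 were lower in KO than in WT cells. Cdc20 had 60.2 in stimulated and 628 in untreated KO cells, 43.7 and 225 in KI cells, and 147.5 and 324 in WT cells. Ccnb2 had 303 and 1580 in KO cells, 239 and 504 in KI cells, and 364.5 and 536 in WT cells.

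In WT cells Tk1 was the 1 member at least 2-fold higher on the stimulated array. It was 4.0-fold higher after stimulation in WT cells and at least 6.65-fold lower in KO cells, with KI cells 1.27-fold lower. Mcm5 had 579 in stimulated and 824 in untreated KO cells, 1088 and 1330 in KI cells, and 834 and 463 in WT cells. Mcm2 had 281 and 216 in KO cells, 202 and 360 in KI cells, and 304 and 178 in WT cells. Rrm2 had 98.6 and 284 in KO cells, 69.1 and 198 in KI cells, and 214 and 156 in WT cells. The WT signal of Mcm5, Mcm2 and Rrm2 was higher on the stimulated array by less than 2-fold, and that of Mcm4, Mcm7 and Lig1 was lower (log2 differences -0.71, -0.86 and -1.04).

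Set against WT, the log2 change in KO cells was at least 1 lower for 15 members (6.22% of all named genes) and higher for 0 (4.41%). It was lower in KI for 6 (7.5%) and higher for 1 (5.73%). The median difference in change was -0.98 for KO and -0.15 for KI. These differences reuse the untreated arrays compared above, and share the WT pair, for which no stimulation time is given. In KO these differences included -4.73 for Tk1, -2.54 for Pclaf and -2.47 for Cdk1, whose stimulated KO signals are under the floor, so that their sizes are lower bounds, and -2.74 for Cks1b.

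**Figure D3:**
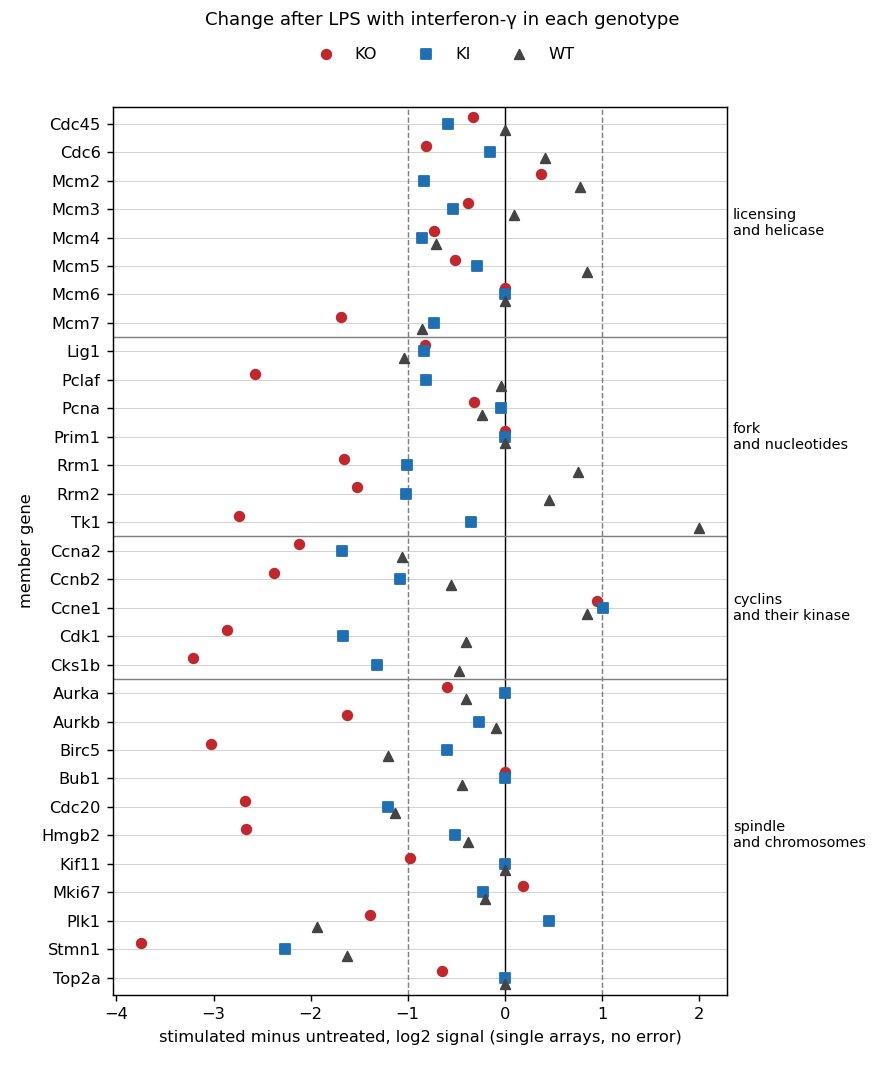
Change in log2 signal after LPS with interferon-γ in KO (circles), KI (squares) and WT cells (triangles) for the 31 members, with dashed lines at 1 and -1. Each point is the difference of 2 single arrays, with no error bar. For 15 members the KO circle lies left of -1, Ccne1 lies near 1 in all genotypes, and Tk1 lies at -2.73 in KO and 2.0 in WT.

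Averaged over both states, no member was called between genotypes. In the same limma fit 0 of 29 members and 0% of all genes tested were called for KO against WT, in either direction. At an unadjusted p under 0.05, 1 of 29 members was higher in KO than in WT (Ccna2, log2 difference 0.96), or 3.45%, beside 5.57% of all genes tested. For KI against WT 0 were called too, again with 0% of all genes, and 3 members were higher (Cdc45, Mcm5 and Pcna) and 1 lower (Mki67) at an unadjusted p under 0.05, or 10.3% and 3.45% of the members beside 6.75% and 10.4% of all genes tested. The second Mcm5 probe set had a KI difference of -0.27 in this fit. Pcna had 5462 in stimulated and 5622 in untreated KI cells, against 3050 and 3582 in WT cells, and Cdc45 156 and 235 against 57.8 and 66.0. Both states thus showed the KI excess for these 2 genes.

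Other proliferation genes were described in the same way, with no test between lists. These lists too were chosen with earlier results of these data known. Without stimulation, KO cells had at least 2-fold more signal than WT cells for 22 genes of 8 further lists holding 111 genes (19.8%, beside 5.53% of all named genes), and less for 2 (1.8%, beside 3.43%). With a floor at the 60th percentile these counts were 6 and 0. Of 24 spindle and kinetochore genes 8 were higher and 0 lower. Nusap1, a spindle protein, had 474 in KO and 105 in KI cells, against 41.6 in WT cells, and Prc1, the bundler of the central spindle, 438 and 221, against 100.4. Of 19 replication fork genes 7 were higher and 1 lower. Dnmt1, the maintenance DNA methyltransferase, had 1611 in KO and 1649 in KI cells, against 582 in WT cells, and Chaf1b, a histone loader, had 95.4 and 215, against 354.

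Of 9 chromatin genes 3 were higher in KO than in WT cells without stimulation, among them the histone chaperone Asf1b (238.5 against 59.2) and the histone H2ax (951 against 444). Of 10 E2F and RB genes 2 were, the E2F partner Tfdp1 (565 against 281) and Lin9, a subunit of the cell cycle repressor complex (198 against 54.8). Of 12 nucleotide synthesis genes 1 was, the reductase subunit Rrm2b (203 against 24.2), and of 11 cohesion and anaphase genes 1 was, Cdc23 (229.5 against 113). Of 15 origin genes 0 were higher and 1 was lower, Wdhd1 (114 in KO against 249 in WT cells), with Orc1 at 115 against 182.5. Of 11 repair and checkpoint genes 0 were called, with Blm at 109.8 against 195 and Wee1 at 207 against 119. Counts of 1 in lists of this size are near the share over all named genes. In untreated KI cells 7 of the 111 were higher than in WT and 7 lower (6.31% each way), near the 7.2% and 8.33% of all named genes. Quantile normalization turned this to 8 and 2, median centring to 11 and 1.

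For stimulation, 3 of 99 of these genes that were tested rose and 3 fell in the limma fit (3.03% each way), below the 5.31% and 6.55% of all genes tested. Dck, the deoxycytidine kinase, rose to 5001 in KO, 3901 in KI and 3553 in WT cells, against 1012, 969 and 550 (log2 change 2.33, SE 0.17, limma adjusted p = 0.00300). Rbl1, the pocket protein p107, rose by 1.27 (limma adjusted p = 0.0242) and Zwint, a kinetochore protein, by 0.62 (limma adjusted p = 0.0310). Cdca3 fell by 1.16 (limma adjusted p = 0.0192), Smc2, a condensin subunit, fell by 1.26 (limma adjusted p = 0.0366) and the histone variant H2az1 fell by 1.11 (limma adjusted p = 0.0400). These 6 calls also ended without both arrays of any genotype. By size, 28 of the 111 genes were at least 2-fold lower after stimulation in KO cells (25.2%, beside 8.52% of all named genes) and 4 higher (3.6%, beside 5.53%), 15 of the lower ones being spindle and kinetochore genes. With a floor at the 60th percentile 6 were lower and 3 higher, and with quantile normalization or median centring 21 lower and 6 higher. These KO changes too reuse the untreated KO array compared above.

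Among 11 genes of macrophage growth signals and their brakes, 3 were at least 2-fold higher than in WT in untreated KO cells (5.53% of all named genes were) and 3 in untreated KI cells (7.2% were). Csf2rb, the shared receptor chain of GM-CSF, interleukin 3 and interleukin 5, had 3698.5 in KO and 2398 in KI cells, against 1137 in WT cells. Klf4, a transcription factor that restrains growth in several cell types, had 695 and 453, against 229. Csf1, the macrophage growth factor, was higher in both as well, with 300.4 and 472.5, against 111, and is named after its values were seen. Its receptor Csf1r, also a macrophage marker and likewise named, had 10799.8 in untreated KO and 11082 in untreated KI cells, against 6667 in WT cells. These Csf1r differences were under 2-fold and not counted. Csf2ra was counted in KI but not in KO cells, and Klf4 in KO but not in KI cells.

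**Figure D4:**
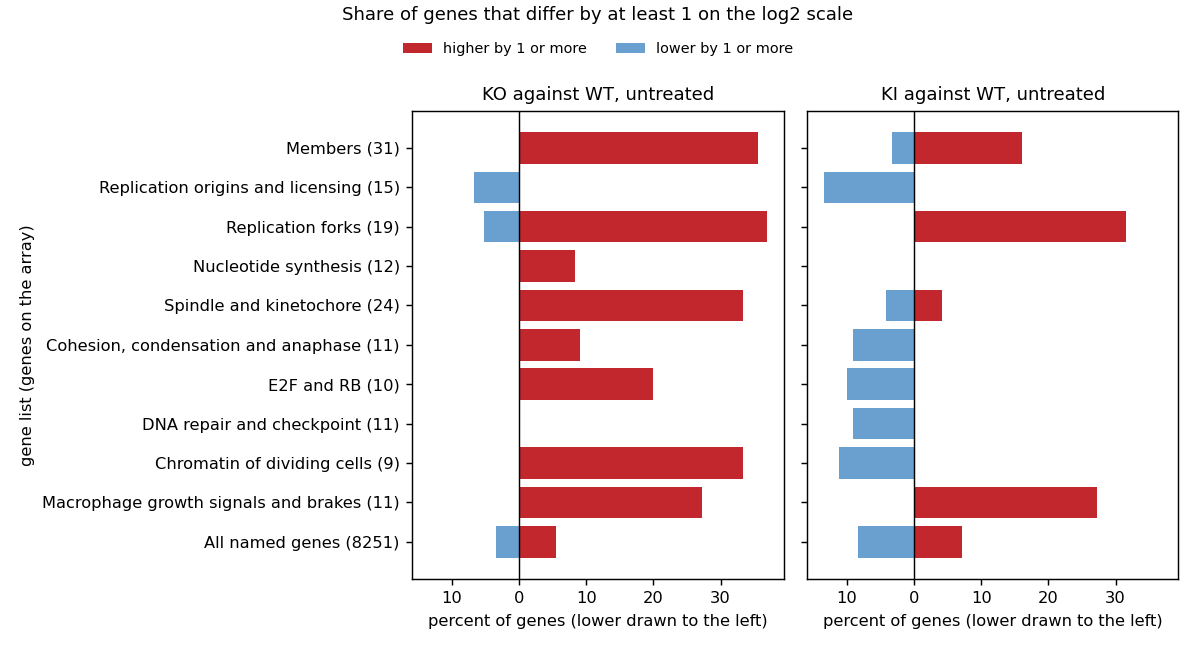
Percent of the genes of each list that were at least 1 higher (right) or lower (left) on the log2 scale in KO (left panel) or KI (right panel) than in WT untreated cells, with the number of genes on the array in brackets. Of 31 members 35.5% were higher in KO, beside 5.53% of all named genes. The members and the lists were chosen with earlier results of these data known.

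Markers of the cell types that an exudate can hold were set beside the members. All 8 measured macrophage markers were above the floor on every untreated array, with summed signals of 56920 in KO, 60040 in KI and 57510 in WT cells, and 7 of 8 on each stimulated one. Lyz2 and Cd68 make up most of that sum, and its members did not move together: Itgam had 1563 in untreated KO and 1263 in untreated KI cells, against 474 in WT cells, and Mrc1 659 and 956, against 321. Of 8 T cell markers only Cd4 passed the floor, and no NK cell marker of 4 did on any array. All 6 B cell markers passed it except for 1 on the stimulated WT array, with summed signals of 1825 in stimulated and 3745 in untreated KO cells, 1154 and 1442 in KI cells, and 1831 and 4026 in WT cells. The 6 dendritic cell markers summed to 4326 in untreated KO, 10220 in untreated KI and 4000 in untreated WT cells. The 4 erythroid markers summed to 1495, 537 and 2144 in the same arrays, the 8 neutrophil markers to 970.4, 1207 and 1673, the 8 mast cell markers to 2177, 1823 and 2473, and the 10 mesothelial and fibroblast markers to 2892, 2962 and 5333. None of these sums was highest in untreated KO cells, but single genes carry several of them. Itgax made up 7300.9 of the untreated KI dendritic sum, while Flt3 had 756 in untreated KO and 375 in untreated KI cells, against 746 in WT cells. In the same order Hba-a1 had 1158, 128 and 1843, and Dcn 581.5, 337 and 1967. The B cell marker Ms4a1 was highest in untreated KO cells, with 795, 319 and 730. The sums therefore do not measure shares of cell types. Of 3 eosinophil, 2 platelet and 4 plasma cell markers, 0, 0 and 4 passed the floor in untreated KO cells, 0, 0 and 4 in untreated KI cells and 1, 2 and 4 in untreated WT cells. No marker was at 0 on any array. Which cells carried the members' transcripts was not tested.

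**Figure D5:**
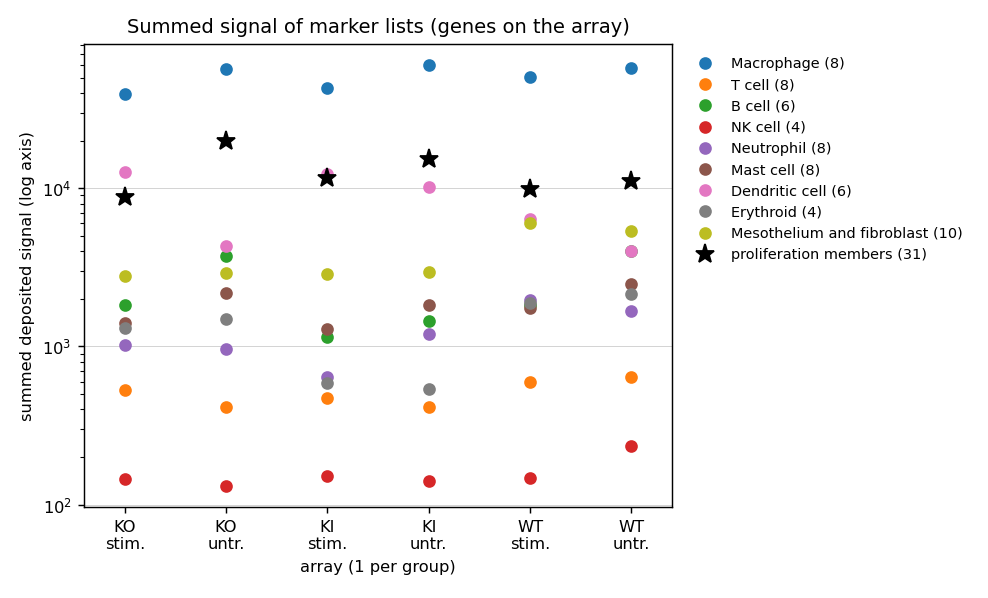
Summed deposited signal (log axis) of 9 marker lists and of the 31 members on each of the 6 arrays, with the number of genes in brackets. The members' sum is highest on the untreated KO array, at 19760, and none of the 9 marker lists is highest there. Single genes carry several of the sums, which do not measure shares of cell types.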

How the data were processed

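RNA of 6 groups was labelled and hybridised to Affymetrix arrays, 1 array per group, from 6 µg of total RNA per the labels' protocols. The deposited values are linear intensities per probe set, which the authors computed with MAS5 according to the submitters' processing notes, and the trimmed means of the 6 arrays lie between 500.3 and 500.4. No source used here gives the scaling target or detection calls. From these intensities each array was rescaled to a common trimmed mean (2% left out at each end), values under the 40th percentile of all values (97.99) were set to it, and log2 was taken. Of 12488 probe sets, 66 controls and those never above the floor were left out of the test, which left 9344. Platform annotation gave 1 symbol for 10833 probe sets, several for 396 and none for 1193, and all 44 member probe sets matched RefSeq.

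Stimulation and genotype were tested with limma 3.58.1 in R 4.3.3 (additive fit, intensity trend, Benjamini-Hochberg adjusted p at 0.05 over all 9344), and the code was tested on simulated data. Other differences are between single arrays, called at 1 on the log2 scale, with no test. With 1 array per group, the p-values set each mean effect against how far the response varied between genotypes, not between cultures. Array processing or scanning and group cannot be told apart. The members and all lists were chosen with earlier results of these data known. From the other lists the text names the genes past the limma test (at most 4 per list) and the 2 largest KO differences from WT in untreated cells, and any further gene is marked where it is named. The alternatives were other floors, a pseudocount of 50, quantile normalization, median centring, no filter, second probe sets, no trend and leaving out each genotype.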

Additional observations from a re-analysis of the deposited data

Results flagged for a closer look

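Tk1 was the member whose change with stimulation ran in opposite directions by at least 2-fold each way. The log2 signal was lower by 2.73 after stimulation in KO cells (change -2.734) and higher in WT cells (change 1.998), so that the KO change was -4.733 against the WT change. The difference was not tested, since each change comes from 2 single arrays. The labels give 12 h for the stimulated KO array and no time for the WT one, so time and genotype cannot be told apart. The stimulated KO signal (93.0) is under the floor, so the KO change is a lower bound in size. The gene's other probe set was under the floor on all 6 arrays and gives no second reading.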

How the results depend on the processing

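Of 102 recomputed counts of members, 80 stayed within 1.5 times of the value given above, 21 moved further and 1 turned its direction. The count of members at least 2-fold different in untreated KO and WT cells ran from 8 with the second probe set to 15 with a floor at the 20th percentile. A second probe set existed for 10 of the 31 members, several of them never above the floor. The floor at the 20th percentile gave 9 for KO against WT and 10 for KI against WT in stimulated cells, 11 for the change in WT, and 12 for the change in KI against WT. The floor at the 60th percentile gave 1 for KI against WT in untreated cells, 0 for both genotypes in stimulated cells, 1 for the change in WT, 4 for the change in KI and 3 for the change in KI against WT. The second probe set gave 3 for KI against WT in untreated and 2 in stimulated cells, 4 for the change in WT and 4 for the change in KI against WT. Quantile normalization gave 3 for KI against WT in stimulated cells. Median centring turned the change in WT to 5 members, 3 higher and 2 lower. For the limma test of stimulation, log2(signal + 50) gave 11 members, no trend 5, no filter 0, and leaving out both arrays of WT, KO or KI gave 0 each time, with fewer arrays in the fit. The cause of the other moves was not tested. No paired analysis was possible because the labels number no replicates and each group has 1 array, while the test of stimulation has genotype as its block.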
